A study of Mus musculus with 5 samples.

Results

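The 10 genes described here, Gata4, Gata6, Sox7, Sox17, Hhex, Dab2, Cubn, Amn, Pdgfra and Cxcr4, are markers of the endoderm lineages of the early mouse embryo. They were chosen as known genes of these lineages, with earlier results of these data known. Each was found on the arrays through the RefSeq record its probes name. They are 10 of the 18300 genes that could be named, and 19 probes read them. Expression was measured on 5 Agilent mouse oligonucleotide arrays, 1 for each condition, in a study that asked how fusion with embryonic stem (ES) cells and later differentiation change cancer cells. The ES sample was the line E14. EHe was a hybrid made by fusing ES cells with Hepa1-6, a mouse hepatoma line, and EHeD7 and EHeD14 were EHe cells differentiated for 7 and 14 days. In the study's methods, the ES cells carried red fluorescent protein and hygromycin resistance from a lentivirus with the EF-1α promoter, and the cancer cells carried green fluorescent protein and neomycin resistance. Hybrids came from polyethylene glycol fusion, were grown from individually picked colonies and were near-tetraploid, and the sources do not say which colony was arrayed. By the labels, ES and EHe were grown in Glasgow medium with leukemia inhibitory factor, differentiating EHe cells as a monolayer on gelatin in a high-glucose serum medium, and Hepa1-6 in a similar one. For differentiation the methods instead give embryoid bodies in serum replacement medium, without naming the array samples.

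The extraembryonic endoderm arises in the blastocyst, where the primitive endoderm segregates from the epiblast. It gives rise to the visceral endoderm, an absorptive epithelium around the embryo, and to the parietal endoderm, which deposits a thick basement membrane. The definitive endoderm arises later, at gastrulation, and forms the gut and its organs, the liver included. GATA and SOX transcription factors act high in this programme. Cubilin and amnionless form a receptor that takes up nutrients in the visceral endoderm with the adaptor Dab2, and Pdgfra and Cxcr4 are cell surface receptors. Several of these genes serve more than 1 lineage, and none of them alone marks a cell type.

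The values are signal intensities from 1 colour per array. They are given as a log2 level, the log2 signal minus that of the 75th percentile of the same array, so a level of 0 lies at that percentile. Levels of different probes are not set against each other. For folds, a probe that the scanner software did not call well above background on an array is held at a bound. This is the array's lowest level called well above background, or the probe's own signal where that is higher. It is taken as an upper bound, and a fold against it is then a lower bound, written as at least N-fold. A gene is called higher or lower when it lies over 3-fold apart and the brighter array is well above background. Because every condition had 1 array, there is no spread between replicates and no test, and the number of arrays limits the precision. The scanner software reports an error with each signal, called the scanner error here, which is its own estimate and not a spread between arrays. For the 10 genes, on the 43 values well above background, it had a median of 0.14 and a highest value of 0.26 on the log2 scale. Between 54.7% of probes (Hepa1-6) and 67.6% (EHeD7) were well above background. ES, EHe, EHeD7 and EHeD14 shared 1 slide and Hepa1-6 lay on another, so what is particular to that slide and to the hepatoma line cannot be told apart. The medium changed together with the state of the cells. In such bulk RNA, fewer cells of a type and less RNA per cell cannot be told apart.

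The promoters of the members over 3-fold higher in EHeD14 than in EHe are shown where the promoter set used here held an entry. Each runs from 250 bases before to 50 bases after the annotated start on the mouse assembly GRCm38.p6. That set held no entry for Gata6 and Sox17, so these members are not shown. The 3 shown were the genes of the uptake receptor and its adaptor, Dab2 (with 2 starts), Cubn and Amn. Capitals mark a match to the GATA motif AGATAA or its reverse complement TTATCT.
Dab2, chr15:6299539-6299838, plus strand: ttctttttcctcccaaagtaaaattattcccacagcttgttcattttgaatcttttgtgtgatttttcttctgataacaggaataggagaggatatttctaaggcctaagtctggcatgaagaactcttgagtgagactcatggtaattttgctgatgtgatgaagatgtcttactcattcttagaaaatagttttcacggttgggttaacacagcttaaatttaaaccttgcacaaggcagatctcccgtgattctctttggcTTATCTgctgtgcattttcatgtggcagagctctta
Dab2, chr15:6386498-6386797, plus strand: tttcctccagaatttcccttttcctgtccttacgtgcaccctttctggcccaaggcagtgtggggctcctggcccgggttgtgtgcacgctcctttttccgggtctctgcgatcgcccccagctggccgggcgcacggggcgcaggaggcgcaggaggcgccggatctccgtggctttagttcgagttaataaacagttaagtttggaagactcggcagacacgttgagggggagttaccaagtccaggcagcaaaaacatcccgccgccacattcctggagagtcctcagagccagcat
Cubn, chr2:13491827-13492126, minus strand: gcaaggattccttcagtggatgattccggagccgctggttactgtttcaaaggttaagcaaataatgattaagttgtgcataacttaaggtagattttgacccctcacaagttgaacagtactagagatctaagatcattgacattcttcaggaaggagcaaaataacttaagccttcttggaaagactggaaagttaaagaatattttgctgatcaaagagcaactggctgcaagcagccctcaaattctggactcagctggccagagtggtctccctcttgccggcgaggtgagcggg
Amn, chr12:111270846-111271145, plus strand: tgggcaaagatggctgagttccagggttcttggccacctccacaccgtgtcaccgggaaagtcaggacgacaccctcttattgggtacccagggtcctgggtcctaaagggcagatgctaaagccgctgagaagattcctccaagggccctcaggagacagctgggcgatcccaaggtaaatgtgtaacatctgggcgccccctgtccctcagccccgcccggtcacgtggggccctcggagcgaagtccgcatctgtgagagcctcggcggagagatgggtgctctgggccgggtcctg
The first Dab2 promoter held 1 such match, and the second Dab2 promoter, Cubn and Amn held none. Of all 32851 promoters of this length, 11.2% held the GATA motif. The entries for Pdgfra, Hhex and Cxcr4 held no match either. None of the 7 entries held the SOX motif ACAAT (or ATTGT), present in 31.0% of all promoters, or the FOXA motif TGTTTAC (or GTAAACA), present in 3.65%. The base composition of the printed promoters differed, from 37.7% G and C with 2 CpG in the first Dab2 promoter to 62.3% with 15 CpG in Amn. The second Dab2 promoter had 59.3% G and C with 19 CpG, and Cubn had 44.3% with 5 CpG. A match is a description of the letters and not a shown binding site.

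The labels of the cells were set against marker genes. All 7 pluripotency genes measured, among them Pou5f1, which encodes the Oct4 factor, and Zfp42, were well above background in ES and in the 3 hybrid samples. None of the 7 lay over 3-fold apart between EHe and ES, where 2.34% of all genes were called higher in EHe and 3.25% lower. In Hepa1-6, 2 of these 7 were well above background, Klf4 and Dppa5a. Of 8 hepatocyte genes, 7 were well above background in Hepa1-6, including Alb and Afp, and Ttr was the exception. In EHe, EHeD7 and EHeD14, Alb, Afp, Ttr, Fgb and Apoa2 were not well above background. EHe had 2 of the 8 well above background (Tat and Trf), and EHeD7 and EHeD14 had 3 each (Hnf4a, Tat and Trf). ES had 4 (Afp, Hnf4a, Tat and Trf). The ES array itself carried all 10 endoderm genes well above background, and the order of levels below therefore starts from a detected level in ES.

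All 10 endoderm genes were well above background in ES, EHeD7 and EHeD14. In EHe 8 were, all but Pdgfra and Cxcr4. In Hepa1-6 5 were, namely Gata4, Dab2, Pdgfra, Cubn and Hhex. The detection limit, the lowest level called well above background, differed between the arrays. It was -4.83 in EHe, -5.40 in ES, -6.14 in EHeD7, -5.53 in EHeD14 and -5.24 in Hepa1-6. Cxcr4 in EHe, at -4.90 as measured, lay under the EHe limit but above its levels in EHeD7 and EHeD14, so its added detection is no measured rise. For the 4 genes well above background on all 5 arrays, the log2 level spanned 5.56 for Dab2, 4.19 for Cubn, 3.84 for Hhex and 1.63 for Gata4. The lowest array of each other gene was not well above background, so those spans have no measured lower end. When the arrays were ordered by level for each gene, 33 pairs of neighbours were both well above background, and 5 of them differed by no more than the combined scanner error. These were Hepa1-6 and ES, and EHeD14 and EHe, for Gata4, ES and EHeD7 for Dab2, and ES and EHe, and EHeD7 and EHeD14, for Hhex.

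**Figure D1:**
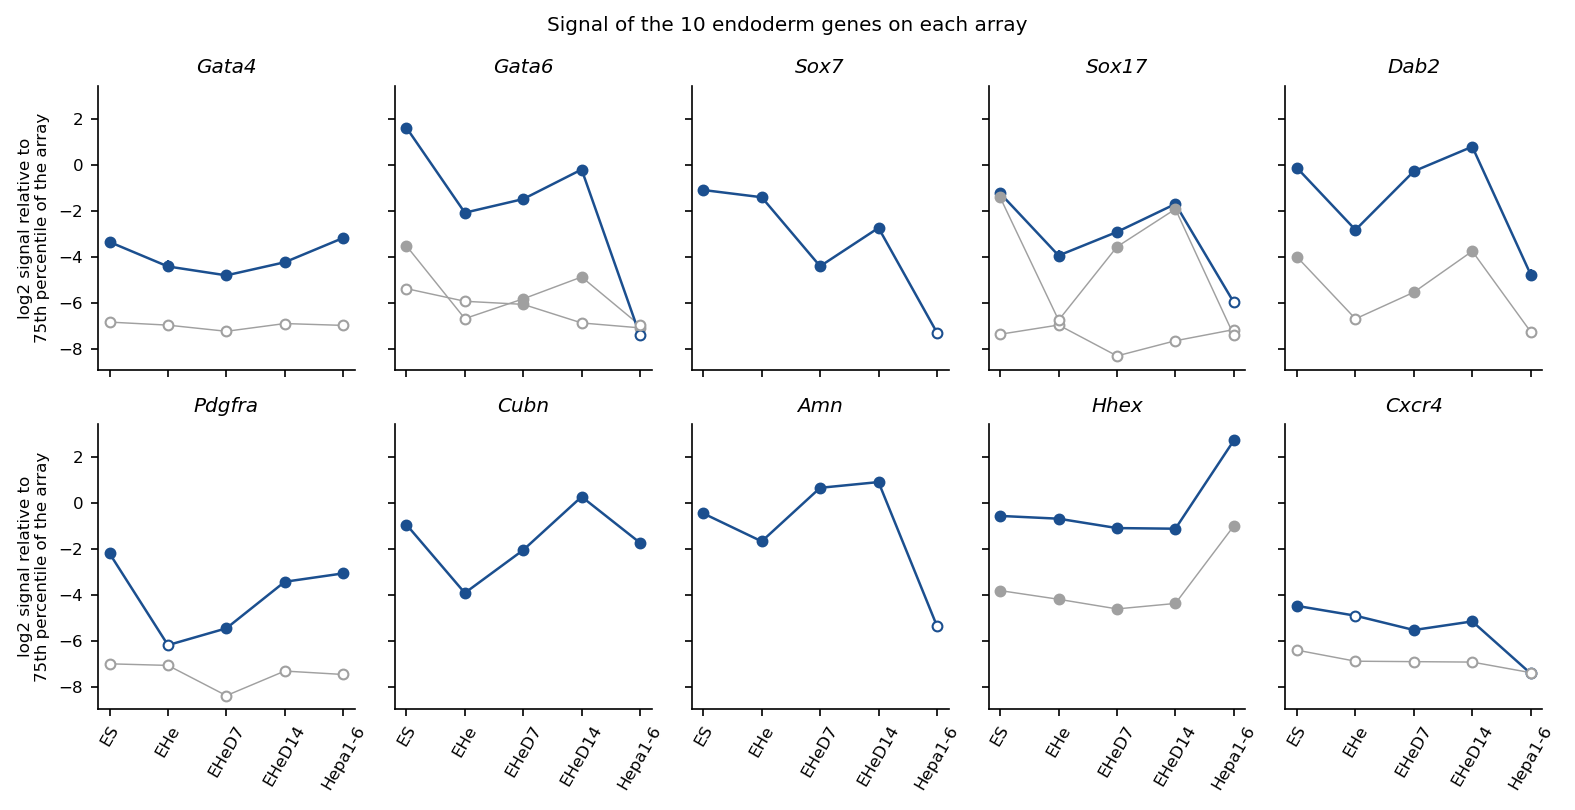
Log2 signal relative to the 75th percentile of the array (vertical axis) for each of the 10 endoderm genes on the 5 arrays (horizontal axis). The probe used for the gene is in blue and its other probes are in grey, with filled points well above background and open points not. Bars show the error that the scanner software reported for the filled points, mostly hidden by them, and there are no replicates. Gata6, Sox17, Dab2, Pdgfra and Cubn are over 3-fold lower in EHe than in ES, and Dab2, Cubn and Amn reach their highest level in EHeD14.

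Gata6, a zinc finger factor needed for primitive endoderm, had a log2 level of 1.61 in ES, -2.09 in EHe, -1.50 at day 7 and -0.21 at day 14, and was not well above background in Hepa1-6. It was thus highest in ES, lowest among the detected samples in EHe, and intermediate after differentiation. Gata6 was 13.0-fold lower in EHe than in ES, the largest of the 8 differences for which both arrays were well above background. It was 3.68-fold higher in EHeD14 than in EHe, and 3.53-fold lower in EHeD14 than in ES. At day 7 it was 1.51-fold higher than in EHe, within 3-fold. A second Gata6 probe had log2 levels of -3.53 in ES, -5.84 at day 7 and -4.88 at day 14 and was not well above background in EHe, where it was at least 2.45-fold lower than in ES. For that probe no fold between EHe and EHeD14 can be given, because its EHeD14 level lies below the detection limit of the EHe array. The third probe was well above background in EHeD7 alone.

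Gata4, the related factor that acts in visceral and parietal endoderm and in the heart, was dim throughout. Its log2 level was -3.36 in ES, -4.43 in EHe, -4.81 at day 7, -4.24 at day 14 and -3.19 in Hepa1-6. Hepa1-6 and ES were highest. Gata4 was 2.09-fold lower in EHe than in ES and 1.14-fold higher in EHeD14 than in EHe. Its second probe was not well above background on any array. Gata4 had no called difference in any of the comparisons made, but under quantile normalization and median centring it was called lower in EHe and in EHeD14 than in Hepa1-6. Among the other GATA genes and cofactors, 1 of 5 kept was called at day 14 against EHe, beside 6.88% higher and 4.33% lower over all genes kept. This was Gata3, known from trophoblast and other lineages, at least 20.8-fold higher.

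Sox17, a factor of both primitive and definitive endoderm, had a log2 level of -1.25 in ES, -3.95 in EHe, -2.93 at day 7 and -1.71 at day 14 and was not well above background in Hepa1-6. Its order over these 4 arrays was that of Gata6. Sox17 was 6.53-fold lower in EHe than in ES and 4.74-fold higher in EHeD14 than in EHe. EHeD14 lay 1.38-fold below ES. A second Sox17 probe, at log2 levels of -1.43 in ES, -3.57 at day 7 and -1.93 at day 14, was not well above background in EHe or Hepa1-6. By this probe Sox17 was at least 10.6-fold lower in EHe than in ES and at least 7.45-fold higher in EHeD14 than in EHe, the same directions as the first. The third probe was not well above background on any array.

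Sox7, a factor related to Sox17 that is known from primitive and parietal endoderm, followed another course. It had a log2 level of -1.10 in ES, -1.42 in EHe, -4.42 at day 7 and -2.75 at day 14 and was not well above background in Hepa1-6. ES and EHe were high, and EHeD7 was the lowest of the detected samples. Sox7 was 1.24-fold lower in EHe than in ES, 8.01-fold lower in EHeD7 than in EHe and 3.18-fold higher in EHeD14 than in EHeD7. Against EHe, EHeD14 was 2.52-fold lower, within 3-fold, and against ES it was 3.13-fold lower. Sox7 was the only one of the 10 genes called lower in EHeD7 than in EHe. Of the 6 other SOX genes kept, only Sox2, a pluripotency factor, was called at day 14 against EHe, 4.44-fold lower. Over all genes 6.88% were called higher and 4.33% lower there.

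Hhex, a homeobox factor of anterior endoderm that also acts in liver and blood, was the 1 gene of the 10 called higher in Hepa1-6 than in ES. Its log2 level was -0.56 in ES, -0.68 in EHe, -1.09 at day 7, -1.11 at day 14 and 2.72 in Hepa1-6. The 4 samples on the first slide lay close together and Hepa1-6 stood above them. Hhex was 9.73-fold higher in Hepa1-6 than in ES, 10.6-fold lower in EHe than in Hepa1-6 and 14.3-fold lower in EHeD14 than in Hepa1-6. The second Hhex probe gave 7.03-fold for Hepa1-6 against ES, with log2 levels from -4.60 to -3.81 in the other samples and -0.99 in Hepa1-6. Differentiation for 14 days left Hhex 1.35-fold lower than in EHe.

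The genes of the uptake receptor and its adaptor, Cubn, Amn and Dab2, were all higher after differentiation than in EHe. Cubn, which encodes cubilin, the ligand-binding part of the receptor, had a log2 level of -0.94 in ES, -3.91 in EHe, -2.04 at day 7, 0.28 at day 14 and -1.73 in Hepa1-6. Each differentiated sample was above EHe, and EHeD14 was the highest of the 5. Cubn was 7.86-fold lower in EHe than in ES, 3.65-fold higher in EHeD7 than in EHe and 18.2-fold higher in EHeD14 than in EHe. Between day 7 and day 14 it was 4.99-fold higher. EHeD14 was 2.32-fold above ES and 4.01-fold above Hepa1-6.

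Amn encodes amnionless, the membrane partner that brings cubilin to the cell surface. Its log2 level was -0.45 in ES, -1.66 in EHe, 0.67 at day 7 and 0.92 at day 14, and it was not well above background in Hepa1-6. The differentiated samples were both above ES and EHe. Amn was 2.32-fold lower in EHe than in ES, within 3-fold, 5.03-fold higher in EHeD7 than in EHe and 5.98-fold higher in EHeD14 than in EHe. EHeD14 was 2.57-fold above ES and at least 71.4-fold above Hepa1-6.

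Dab2, the clathrin adaptor that binds the tails of endocytic receptors and is a classic marker of extraembryonic endoderm, had a log2 level of -0.14 in ES, -2.84 in EHe, -0.28 at day 7, 0.78 at day 14 and -4.78 in Hepa1-6. EHe was the lowest hybrid sample and EHeD14 the highest sample. Dab2 was 6.46-fold lower in EHe than in ES, 5.86-fold higher in EHeD7 than in EHe and 12.3-fold higher in EHeD14 than in EHe. EHeD14 lay 1.90-fold above ES and 47.2-fold above Hepa1-6. A dimmer second Dab2 probe, not well above background in EHe or Hepa1-6, was at least 1.75-fold lower in EHe than in ES and at least 2.09-fold higher in EHeD14 than in EHe. Those bounds lie within 3-fold, and the directions were the same.

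Of the 7 genes listed as partners in endocytosis, 6 were kept, and at day 14 against EHe 3 were called higher and 1 lower, beside 6.88% higher and 4.33% lower over all genes kept. Lrp2, which encodes megalin, the large receptor that works beside cubilin, was 3.34-fold higher. Its log2 level was 1.05 in ES, 1.97 in EHe, 3.49 at day 7, 3.71 at day 14 and -3.36 in Hepa1-6. Unlike Cubn and Dab2, Lrp2 had no called difference between EHe and ES. Lrpap1, the chaperone of megalin, was 3.63-fold lower in EHe than in ES and 3.35-fold higher in EHeD14 than in EHe. Clcn5, an endosomal chloride and proton exchanger, was 4.63-fold higher in EHeD14 than in EHe. Folr1, a folate receptor, was 3.18-fold lower. The vitamin B12 carrier gene Cblif, which encodes intrinsic factor, a cubilin ligand, was not well above background on any array.

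Pdgfra, the receptor for platelet-derived growth factor that marks primitive endoderm and also mesenchyme, had a log2 level of -2.19 in ES, -5.45 at day 7, -3.42 at day 14 and -3.06 in Hepa1-6, and was not well above background in EHe. Its main probe was printed 10 times, and the SD between these spots ran from 0.0628 in ES to 0.397 in EHe. ES and Hepa1-6 were highest, and EHe cannot be ordered against EHeD7, whose level lies under the detection limit of the EHe array. Pdgfra was at least 6.23-fold lower in EHe than in ES. It was at least 2.65-fold higher in EHeD14 than in EHe, a bound under 3-fold, and 4.07-fold higher in EHeD14 than in EHeD7. EHeD14 lay 2.35-fold below ES. The second probe was not well above background on any array.

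Of the 6 other PDGF ligand and receptor genes, 3 were called higher in EHeD14 than in EHe and none lower, where 6.88% and 4.33% of all genes were called. Pdgfrl, a receptor-like gene, was 8.14-fold higher. Pdgfrb, the related receptor typical of mesenchyme and pericytes, was 9.85-fold lower in EHe than in ES and 4.94-fold higher in EHeD14 than in EHe. Pdgfb was at least 3.78-fold higher. Pdgfa, the main ligand of Pdgfra, was 2.05-fold lower, within 3-fold.

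Cxcr4, a chemokine receptor used to sort definitive endoderm, lay near the detection limit in ES and the hybrid samples and well under it in Hepa1-6. Its log2 level was -4.47 in ES, -5.52 at day 7 and -5.15 at day 14, and it was not well above background in EHe or Hepa1-6. No called difference was found in any comparison, and a change of Cxcr4 was not detectable at these signals between EHe and either differentiated sample, for which no fold can be given. Its ligand gene Cxcl12 had a log2 level of 1.56 at day 7 and 1.88 at day 14 and was not well above background in EHe, so it was at least 105-fold higher in EHeD14 than in EHe. Cxcl12 was well above background but dim in ES, at -5.16, and not well above background in Hepa1-6. Of the 3 kept genes of this group, it was the only one called at day 14 against EHe, beside 6.88% higher and 4.33% lower over all genes.

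The undifferentiated hybrid was then compared with ES over the 10 genes together, which asks what the endoderm genes of the ES sample look like after fusion. None of the 10 was called higher in EHe and 5 were called lower, namely Gata6, Cubn, Sox17, Dab2 and Pdgfra. Over all 15428 genes kept, 2.34% were called higher and 3.25% lower. After median centring of the arrays these shares were 2.96% and 2.53%, and the count of the 10 genes called lower stayed at 5. The median log2 difference of the 10 genes on the signals as measured was -1.95, beside -0.15 over all genes. All 10 lay below 0, from -3.99 to -0.12, as did 9011 of the 15428 genes kept. The -3.99, of Pdgfra, and the value of Cxcr4 use EHe signals not well above background. Hhex, at -0.12, lay within the scanner error and was at 0.0045 after median centring. None of the pluripotency genes was called in this comparison. Of the 8 mesenchyme genes kept, Pdgfrb was 9.85-fold lower in EHe than in ES and Twist1 at least 3.83-fold higher. Of the 8 cardiac genes kept, Hand1 was at least 8.55-fold lower and Myh6 4.54-fold lower. The part of these other cell types in the endoderm result was not tested.

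**Figure D2:**
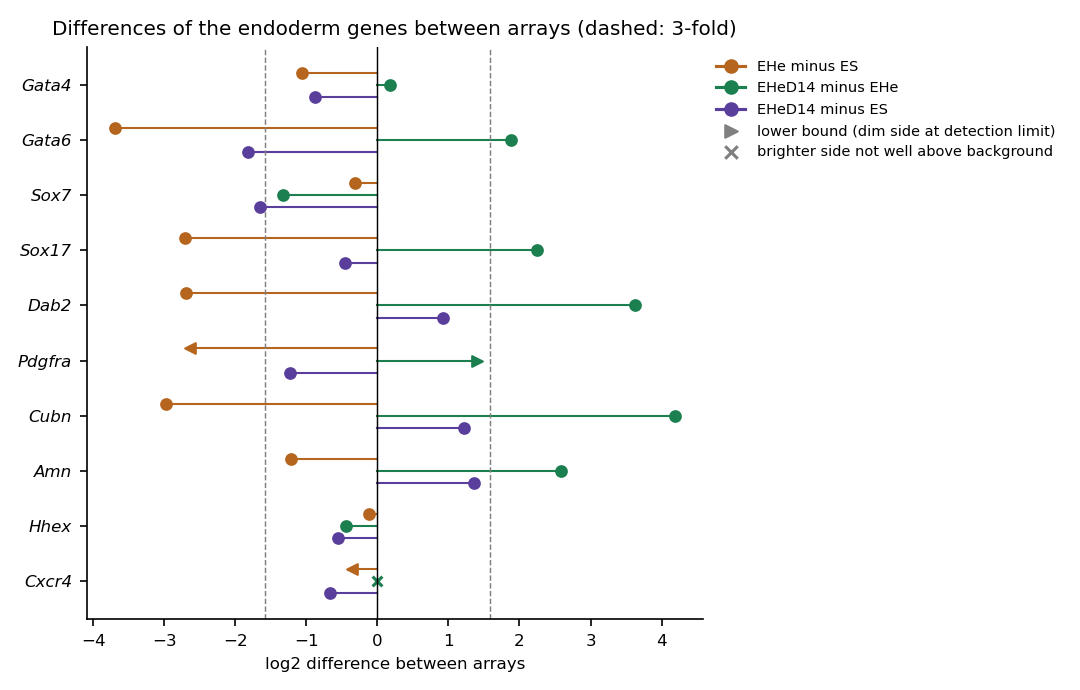
Log2 difference between arrays (horizontal axis) of each endoderm gene for EHe minus ES, EHeD14 minus EHe and EHeD14 minus ES, with 1 array per condition and so no error bars; triangles are lower bounds, crosses have no fold and dashed lines mark 3-fold. The first 2 comparisons share the EHe array; in the third, which does not use it, 2 genes pass the dashed line, both lower.

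Differentiation was followed from EHe. At day 7, 3 of the 10 genes were called higher than in EHe (Dab2, Amn and Cubn) and 1 lower (Sox7), beside 6.78% higher and 4.04% lower over all genes. The median log2 difference as measured was 0.66 for the 10 genes and -0.07 over all genes. That 0.66 lies between Gata6, at 0.59, and Pdgfra, at 0.73. The Pdgfra value uses an EHe signal not well above background, so the median rests in part on a gene with no fold. At day 14, 5 were called higher (Cubn, Dab2, Amn, Sox17 and Gata6) and none lower, beside 6.88% and 4.33%. The median was 2.06 for the 10 genes and -0.03 over all genes. Dab2, Amn and Cubn were called at both days, although Cubn lost its call at day 7 with normexp background correction. Sox17 and Gata6 lay 2.04-fold and 1.51-fold above EHe at day 7, within 3-fold, but with the mean of its probes Sox17 was called at day 7 too, at 2.11 on the log2 scale. Between the days themselves, 3 genes were called higher at day 14 (Cubn, Pdgfra and Sox7) and none lower, beside 0.493% and 0.635% over all genes. There 9 of the 10 lay above 0, as did 8330 of the 15428 genes kept, with a median of 1.14 beside 0.02 over all genes.

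The comparisons of EHe with ES and of the differentiated samples with EHe share the EHe array, so their values stand side by side and are no independent support for each other. EHeD14 against ES does not use EHe. In that comparison none of the 10 genes was called higher and 2 were called lower, Gata6 by 3.53-fold and Sox7 by 3.13-fold, beside 7.62% higher and 6.69% lower over all genes. The other 8 lay within 3-fold of ES, with Amn, Cubn and Dab2 above it. The median was -0.62 for the 10 genes and -0.16 over all genes. EHeD7 against ES had none called higher and 4 lower, Sox7 by 9.96-fold, Pdgfra by 9.57-fold, Gata6 by 8.61-fold and Sox17 by 3.20-fold, beside 7.82% and 6.6%.

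**Figure D3:**
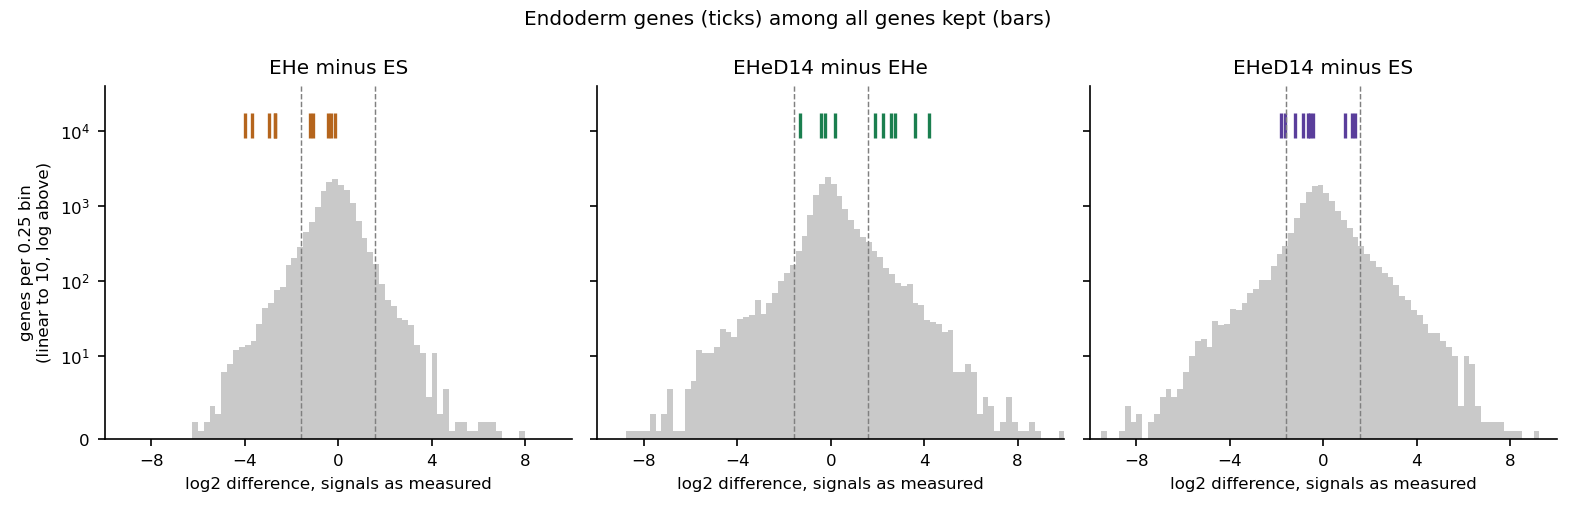
Number of genes (vertical axis, linear to 10 and logarithmic above) by log2 difference as measured (horizontal axis, bins of 0.25) for the 15428 genes kept, in 3 comparisons with 1 array per condition, with coloured ticks for the 10 endoderm genes and dashed lines at 3-fold. The ticks lie left of 0 for EHe minus ES, with a median of -1.95, and mostly right of 0 for EHeD14 minus EHe, with a median of 2.06.

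Hepa1-6 was compared with ES, the other parent. There 1 of the 10 genes, Hhex, was called higher in Hepa1-6 and 5 lower, beside 13.5% and 20.3% over all genes. After median centring of the arrays, the shares over all genes were 22.1% and 11.8%. Gata6 was at least 116-fold lower in Hepa1-6, Amn at least 27.8-fold, Dab2 24.8-fold, Sox7 at least 17.7-fold and Sox17 at least 16.0-fold. Gata4, Pdgfra and Cubn lay within 3-fold of ES. EHe had 4 genes called higher than Hepa1-6 (Sox7, Amn, Gata6 and Dab2) and 3 lower (Hhex, Cubn and Pdgfra), beside 17.3% and 13.2% over all genes. With median centring these shares were 11.4% and 20.5%, and 3 of the 10 genes were called higher and 4 lower. Under that setting and under quantile normalization Dab2 lost its call and Gata4 was called lower. With normexp 3 were called higher and 1 lower, Hhex, and with the mean of a gene's probes 2 were called higher, Sox7 and Amn. EHeD14 had 6 called higher than Hepa1-6 and 1 lower, Hhex, beside 17.2% and 12.5%, or 11.2% and 22.7% with median centring. Centring gave 5 called higher, without Cubn, and 2 lower, Hhex and Gata4. Sox7 lost its call with normexp and Gata6 with the mean of its probes. Cubn was 4.54-fold lower in EHe and 4.01-fold higher in EHeD14 than in Hepa1-6. The first of these calls was lost with normexp and the second with median centring.

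Genes of the endoderm lineages other than the 10 were taken from lists for visceral, parietal and definitive endoderm, 46 genes in all, of which 39 were kept. The lists too were chosen with earlier results of these data known. At day 14 against EHe, 20 of the 39 were called higher and 1 lower, and at day 7 16 were called higher and 2 lower. Over all genes the shares were 6.88% and 4.33% at day 14 and 6.78% and 4.04% at day 7. The median log2 difference as measured was 2.07 at day 14 and 1.52 at day 7. Between EHe and ES, 1 was called higher and 8 lower, beside 2.34% and 3.25% over all genes, with a median of -1.23. For EHeD14 against ES, which does not use the EHe array, 14 were called higher and 3 lower, beside 7.62% and 6.69% over all genes, with a median of 1.04.

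Of 16 visceral endoderm genes kept, 6 were called higher and 1 lower in EHeD14 than in EHe, beside 6.88% and 4.33% over all genes. Otx2, a homeobox factor of anterior visceral endoderm and epiblast, was 17.8-fold higher, and Eomes, a T-box factor, 15.9-fold higher. Foxa2, a forkhead factor of endoderm and node, was at least 5.36-fold higher, the transcription cofactor Cited1 4.99-fold and the retinol carrier Rbp4 4.22-fold. Lefty1, an inhibitor of Nodal signalling also expressed in ES cells, was 6.21-fold lower. Between EHe and ES, Otx2 was 7.27-fold and Foxa2 at least 3.99-fold lower in EHe, and Cited1 was 16.3-fold higher. No other gene of the 16 was called there, beside 2.34% higher and 3.25% lower over all genes. Against ES, EHeD14 had 3 called higher (Lrp2, Eomes and Cited1) and 2 lower (Lefty1 and Soat2), beside 7.62% and 6.69%. Otx2, Foxa2 and Rbp4 lay within 3-fold of ES at day 14. Afp, Ttr, Apoa1 and Apob were not well above background in EHeD14, and Apoe lay 1.41-fold below EHe.

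Of 12 parietal endoderm genes kept, 8 were called higher in EHeD14 than in EHe and none lower, again beside 6.88% and 4.33%. The keratins Krt19 and Krt8, also found in other simple epithelia and trophoblast, were the farthest apart, Krt19 by 7.64 on the log2 scale and Krt8 by 78.6-fold. Among the basement membrane genes, Col4a1 was 12.5-fold, Col4a2 9.89-fold and Lamb1 7.27-fold higher. Col4a1, Col4a2 and Krt8 were also called lower in EHe than in ES, by 3.90-fold, 3.44-fold and 4.92-fold. Plat, tissue plasminogen activator, was 5.55-fold higher in EHeD14 than in EHe.

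Of 15 definitive endoderm genes kept, 9 were called higher in EHeD14 than in EHe and none lower, with 6.88% and 4.33% over all genes. Trh, a peptide hormone precursor, was 111-fold higher, the T-box factor T, a primitive streak and mesoderm gene as well, at least 94.6-fold, and the tight junction gene Cldn6 92.4-fold. Otx2 and Eomes, with the values above, are on this list too, and Gsc, a homeobox factor of the organizer, was at least 11.8-fold higher. T had a log2 level of 1.64 at day 7 and 1.74 at day 14 and was not well above background in EHe. Between EHe and ES, 4 of the 15 were called lower in EHe and none higher, beside 3.25% and 2.34% over all genes. These were Foxa2, Otx2, Trh (4.25-fold) and Cldn6 (4.85-fold). In EHeD14 against ES, 8 were called higher and none lower, beside 7.62% and 6.69%. Foxa1, Mixl1 and Pdx1 were not well above background in ES or in any hybrid sample. Sox17 and Hhex, the members closest to this list, differed from each other, with Sox17 4.74-fold higher and Hhex 1.35-fold lower at day 14 against EHe.

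**Figure D4:**
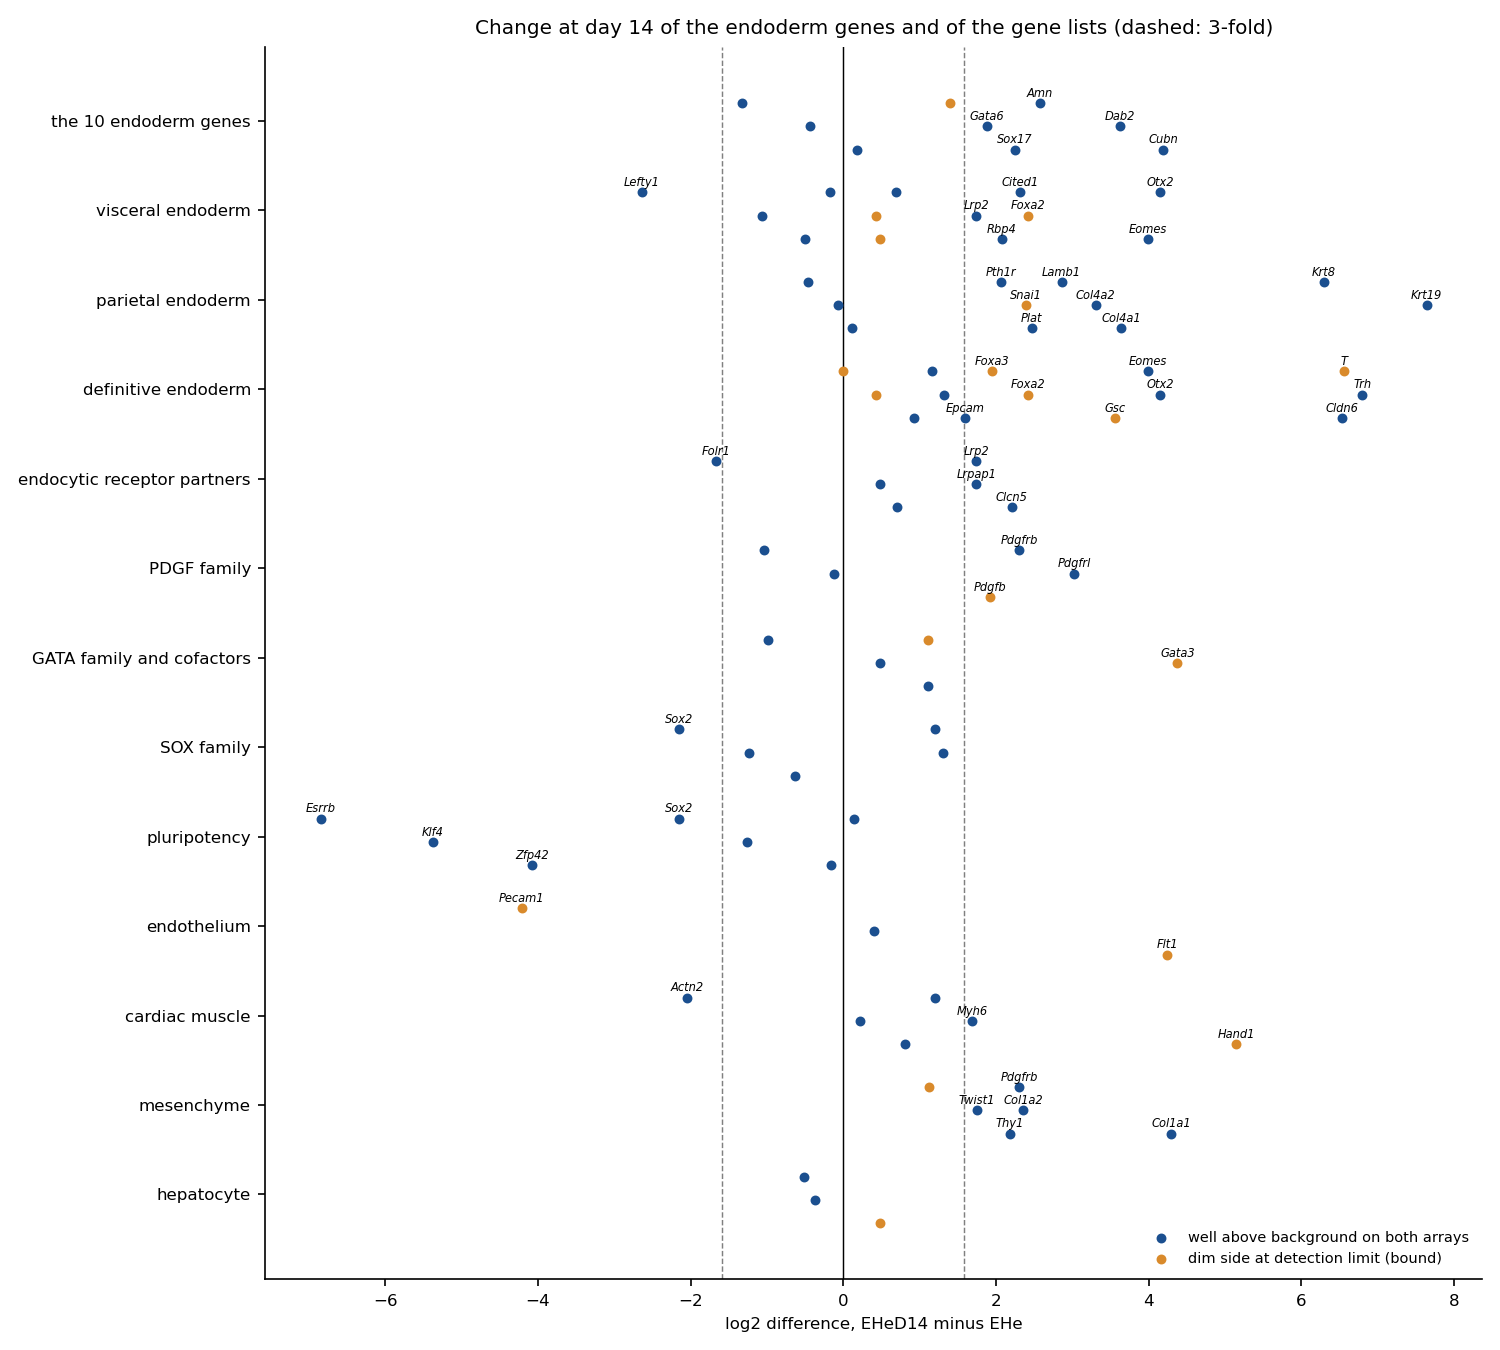
Log2 difference of EHeD14 minus EHe (horizontal axis) for single genes of the 10 endoderm genes and of each list (vertical axis, shifted within a list so that points can be told apart), with 1 array per condition, genes past 3-fold named, orange points lower bounds and genes with no fold left out. Krt19, at 7.64, lies farthest to the right and Esrrb, 115-fold lower, farthest to the left. None of the hepatocyte genes with a fold, Hnf4a, Tat and Trf, passes 3-fold.

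Markers of other cell types moved at day 14 as well, and several of the endoderm genes are known outside endoderm. Of 8 mesenchyme genes kept, 5 were called higher than in EHe (Col1a1 19.6-fold, Col1a2 5.13-fold, Pdgfrb 4.94-fold, Thy1 4.53-fold and Twist1 3.37-fold) and none lower, beside 6.88% and 4.33% over all genes, with a median of 2.24. Over the 9 measured, 5 were well above background in ES and in EHe, 7 at day 7 and at day 14, and 2 in Hepa1-6, and Lum was not well above background on any array. These genes stand beside the 4.07-fold difference of Pdgfra between the days, where their part was not tested. Of 8 cardiac muscle genes kept, Hand1, also known from trophoblast and extraembryonic mesoderm, was at least 35.5-fold higher and Myh6 3.23-fold higher, and Actn2 was 4.13-fold lower. Well above background were 7 of the 8 cardiac genes in ES, 5 in EHe and all 8 in EHeD7 and EHeD14. The EHe array had the highest detection limit, at a log2 level of -4.83. Tnnt2 and Hand2, not well above background in EHe, lay under that limit at day 7 (-5.98 and -5.43) and day 14 (-5.46 and -5.31). So did Prrx1 of the mesenchyme list (-5.12 and -4.87). For these genes the added detection is no measured rise. The median of the cardiac list at day 14 was 0.51. Gata4, known from the heart as well, was 1.14-fold higher over the same interval.

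The endothelial list bears on Sox7 and Sox17, which are known from endothelium. Of its 8 genes 4 were kept, and at day 14 against EHe 1 was called higher and 1 lower. For this and the lists that follow, the shares over all genes in that comparison were 6.88% higher and 4.33% lower. Cdh5, Tie1, Kdr and Emcn were not well above background on any array, whereas Eng was in ES and in every hybrid sample and Tek in ES, EHeD7 and EHeD14. Flt1, also expressed in trophoblast, was at least 18.9-fold higher in EHeD14 than in EHe, and Pecam1, also expressed in ES cells, at least 18.5-fold lower. Of 7 hepatocyte genes kept, Alb, Afp, Fgb and Apoa2 were not well above background in EHe or EHeD14 and so could not be called. Hnf4a, Tat and Trf could be, and none of them was called at day 14 against EHe. Of the 7 pluripotency genes, 4 were called lower and none higher, Esrrb by 115-fold, Klf4 by 41.4-fold, Zfp42 by 16.8-fold and Sox2 by 4.44-fold, while Pou5f1 lay 1.11-fold above EHe.

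The genes whose course over the 5 arrays was nearest to that of a member were sought among the 15427 other genes kept, by the root mean square difference of the log2 levels after each gene was centred on its own mean. This was done for the 4 members with the widest span when dim values are taken as measured. For Gata6, Amn and Sox7 that span, and part of the likeness, rests on a Hepa1-6 value not well above background. Nearest to Gata6 were Tmem181a (0.687), Srgn (0.722) and Batf3 (0.728). Nearest to Amn were Mfap4 (0.176), Fndc5 (0.187) and Drd4 (0.188). Nearest to Sox7 were Rbm44 (0.450), Actn3 (0.504) and Tnik (0.524), and nearest to Dab2 were Pdlim4 (0.404), Trpa1 (0.409) and Sapcd1 (0.410). Trpa1 was well above background on 3 arrays and Sapcd1 on 4, so part of their likeness to Dab2 rests on dim values too. With 5 arrays, many genes can share such a course, and no other member was among the 3 nearest of any of the 4.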

How the data were processed

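RNA of 5 samples was hybridized to Agilent arrays, 1 per condition. The dye was Cy3 by the labels and Cy5 by the methods. For each array the authors deposited scanner tables, made with Agilent Feature Extraction 10.7.3.1 by the submitters' processing notes, whose processed intensity was corrected for background and not normalized between arrays. The deposited series table held the same values, with a largest relative difference of 0. Here control spots and outlier spots (73 to 174 per array) were left out, spots of a probe were averaged as log2 intensity, and the 75th percentile of its array was subtracted. Of 41174 probes, 26888 were named through RefSeq. A probe was kept if it was well above background on 1 array or more, and for each gene the probe well above background on most arrays, then the brightest, was used. The detection limit of an array was its lowest probe called well above background. The members and lists were chosen with earlier results of these data known. Named were all members, up to 6 genes per list called at day 14 against EHe with the largest bounded difference, and the 3 nearest genes of 4 members. Values named for a list's undetected genes or for other comparisons were chosen after they were seen. Alternatives were normexp with an offset of 50 on the median spot signal, quantile normalization, median centring, dim values as measured, no filter, a filter on all 5 arrays, 2-fold, the mean of a gene's probes, the series table and ES as reference. The procedure was tested on simulated data. Promoters and names came from RefSeq (GRCm38.p6). Computations used R 4.3.3 with limma 3.58.1, and Python 3.11.15 with matplotlib 3.10.9, numpy 2.4.6 and pandas 2.3.3.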

Additional observations from a re-analysis of the deposited data

How the results depend on the processing

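No paired analysis was possible because there was a single array of every condition, and for the same reason no array could be left out. Of 148 recomputed counts of called genes, 126 stayed within 1.5 times the reported count, and no called difference of a single gene changed direction. Part of the 126 was fixed in advance. The series table holds the same values, and leaving out the filter adds only genes dim on every array, which cannot be called. The filter on all 5 arrays left 4 of the 10 genes by construction and gave 2 lower for EHe against ES, 0 lower at day 7 and 2 higher at day 14 against EHe, 1 higher between the days, 1 lower for Hepa1-6 against ES, and 1 higher for EHe and 2 higher for EHeD14 against Hepa1-6. It gave 10 higher and 0 lower in the endoderm lists. With ES in place of EHe, day 7 had 0 higher and 4 lower, beside 7.82% and 6.6% over all genes. Day 14 had 0 higher and 2 lower, beside 7.62% and 6.69%. At 2-fold, 1 gene (Sox7) was lower at day 14 against EHe, beside 8.81% of all genes, and 6 were higher between the days, beside 1.28%. In EHeD14 2 were lower than in Hepa1-6, beside 19.6%. Of the endoderm lists 2 were lower at day 14 against EHe, beside the same 8.81%. Normexp gave 1 higher between the days, beside 0.0972% of all genes, and 1 lower in EHe than in Hepa1-6, beside 11.4%. The mean of probes gave 2 higher in EHe than in Hepa1-6, beside 17.0%. Quantile normalization and median centring gave 2 lower in EHeD14 than in Hepa1-6, beside 14.1% and 22.7%. The cause of these shifts was not tested. At day 14 against EHe, normexp left 4 higher, without Sox17, the mean of probes left 4, without Gata6, and dim values as measured gave 6, with Pdgfra. Over all genes this comparison had 1062 higher and 668 lower, beside 703 and 405 with normexp, 520 and 290 with the filter on all 5 arrays, and 1920 and 1359 at 2-fold. Median centring moved the median difference of all genes from -0.03 to -0.17 at day 14 against EHe, from -0.07 to -0.24 at day 7 against EHe and from -0.45 to 0.32 for Hepa1-6 against ES. Dim signals leave 5 of the 10 genes without a level in Hepa1-6 and Pdgfra and Cxcr4 without one in EHe.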
